A study of Mus musculus with 7 samples.

Results

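The RAS-MAPK pathway was examined through 43 genes, from the adaptor Grb2 to the p38 kinases, in RNA-seq of regulatory T (Treg) cells of the mouse lung. The genes are a list of symbols (adaptors, RAS proteins with their exchange factors and GTPase activators, RAF and MAP kinases, phosphatases and feedback inhibitors), taken by name with no threshold on a measured value, and all 43 were found among the 19736 symbols measured. Both groups, 3 libraries of CCR6+ and 4 of CCR6- cells, were sorted as Foxp3-EGFP+ cells from digests of the whole lung, where EGFP reports Foxp3, the transcription factor that defines Treg cells. All mice carried Il4raR576, the R576 form of the interleukin-4 receptor alpha chain, so the comparison is between CCR6+ and CCR6- cells under that allele and includes no mice with the common form. The mice were females aged 5 to 7 weeks, the strain is not given in the labels, and all were sensitized with 100 µg of ovalbumin (OVA) in the peritoneum. They got a further OVA injection after 2 weeks and breathed 1% OVA aerosol for 30 minutes a day on 3 days from day 29, until the lungs were taken on day 32. CCR6 is the receptor for the chemokine CCL20. Whether each library came from its own mouse or from a pool is not in the labels. Nor do they say whether CCR6+ and CCR6- libraries came from the same mice. The p-values below therefore measure library-to-library spread only, and that spread may be technical.

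In this pathway, activated receptors bind adaptors such as GRB2 and SHC1, which bring the exchange factor SOS to the membrane, and SOS loads RAS with GTP. RAS starts the cascade from RAF through MEK to ERK, and parallel cascades lead to the stress kinases JNK and p38. In T cells the exchange factor RASGRP1, which responds to diacylglycerol, works beside SOS below the antigen receptor. GTPase activators turn RAS off, dual-specificity phosphatases (DUSPs) strip the MAP kinases of phosphate, and Sprouty and Spred proteins dampen the path from receptor to ERK. Much of this regulation acts on proteins, whereas the data here are mRNA levels.

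The promoters of 4 members are printed, chosen for their levels within the p38 family or among all members. Mapk13 and Mapk14, which encode p38 delta and p38 alpha, are neighbours on chromosome 17 with 20890 bases between them, yet lie at opposite ends of the p38 family in level. Dusp1 and Dusp5 had the highest levels per kilobase of exon among all 43. The stretches are from RefSeq on GRCm38.p6, 5′ to 3′ on the gene's strand, and take in up to 250 bases before the RefSeq start, without bases that GENCODE M21 counts as exon of the gene. They are Mapk13, chr17:28769067-28769296 on the plus strand, Mapk14, chr17:28691092-28691328 on the plus strand, Dusp1, chr17:26508520-26508722 on the minus strand, and Dusp5, chr19:53528895-53529108 on the plus strand. Capitals mark matches on either strand to the motifs searched: GC box GGGCGG, CRE TGACGTCA, AP-1 TGANTCA, ETS core CCGGAA, STAT TTCNNNGAA, ROR motif AGGTCA and the CArG box.
Mapk13: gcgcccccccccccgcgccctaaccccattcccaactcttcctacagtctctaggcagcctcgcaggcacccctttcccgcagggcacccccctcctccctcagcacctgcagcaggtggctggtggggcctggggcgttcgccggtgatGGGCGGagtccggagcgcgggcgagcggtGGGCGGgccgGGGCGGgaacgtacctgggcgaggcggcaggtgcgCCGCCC
Mapk14: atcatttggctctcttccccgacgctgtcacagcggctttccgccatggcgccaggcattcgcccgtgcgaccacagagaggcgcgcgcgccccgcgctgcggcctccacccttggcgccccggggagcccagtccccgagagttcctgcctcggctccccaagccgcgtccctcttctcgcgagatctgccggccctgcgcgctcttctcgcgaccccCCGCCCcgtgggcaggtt
Dusp1: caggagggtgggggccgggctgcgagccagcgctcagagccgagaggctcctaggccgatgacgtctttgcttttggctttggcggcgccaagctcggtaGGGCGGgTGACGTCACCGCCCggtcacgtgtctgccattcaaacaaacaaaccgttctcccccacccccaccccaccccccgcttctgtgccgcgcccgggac
Dusp5: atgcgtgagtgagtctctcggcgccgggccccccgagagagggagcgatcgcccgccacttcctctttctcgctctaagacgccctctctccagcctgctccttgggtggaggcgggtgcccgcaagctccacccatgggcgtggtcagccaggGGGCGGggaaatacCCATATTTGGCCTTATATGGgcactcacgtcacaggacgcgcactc
The Mapk13 stretch holds 4 GC boxes and the Mapk14 stretch holds 1. RefSeq gives Mapk14 a further start, whose window (chr17:28692318-28692567, not printed) has no GC box but an ETS core and a STAT motif that overlap, and Mapk14 is counted for those motifs through it. In the Dusp1 stretch a CRE, the motif of CREB-type factors, directly adjoins a GC box read on the other strand, and 1 base lies between the CRE and a further GC box before it; no matches overlap. The Dusp5 stretch has a GC box and 2 adjoining CArG boxes, the motif of serum response factor. A Dusp6 stretch (chr10:99262981-99263230 on the plus strand, not printed) was also drawn and held none of the motifs searched. Of the members, 39 matched the promoter table, which holds 32851 windows of 250 bases. A GC box was in 29 of the 39 and in 32.7% of all windows, an ETS core in 10 and in 12.0%, a STAT motif in 5 and in 7.02%, and the ROR motif in 4 and in 14.0%. AP-1 was in 3 of the 39 (6.75% of all windows), CRE in 3 (1.55%; Braf, Dusp1 and Ptpn11) and the CArG box in Dusp5 alone (1.47%). A member was counted if any of its windows held the motif, whereas the percentages are of single windows. The units differ, so no enrichment is read from these counts. A match describes letters, not binding.

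Levels are normalised counts, that is, reads per gene divided by the library's size factor, and each log2 difference is CCR6+ minus CCR6- on the scale log2(value + 1), which understates the change of low genes. The libraries held 11607780 to 47261246 reads, the fewest in CCR6+ replicate 2 and the most in CCR6- replicate 4. CCR6+ replicate 2 stood apart from the other 6. It had only 2.16% of genes at 0, against 6.89% to 29.7% in the others, and the lowest summed level of 9 Treg and T cell markers, 102039 against 169505 to 278962. No marker of that list, Foxp3 included, was at 0 in any library. It also had the highest summed level for 4 of 5 lists of other cell types' markers. The 8 epithelial markers summed to 3347 to 75903 in CCR6+ and 1738 to 8973 in CCR6- libraries, and 6 of the 8 were highest in CCR6+ replicate 2. The 8 endothelial and stromal markers summed to 6176 to 48208 and 5517 to 8299, and the 8 macrophage and monocyte markers to 9693 to 120526 and 1335 to 34335, with all 8 of each list highest in that library. The 9 granulocyte and mast cell markers, 7 of them highest there, summed to 219.1 to 2122 and 9.48 to 288.5. The 6 B cell markers, 2 of them highest there, summed to 1197 to 5271 and 470.8 to 3441. Of those lists, Pdgfra, Adgre1, Marco, Mrc1, Mpo, Elane, Siglecf, Epx, Prg2, Ms4a2 and Pax5 were at 0 in at least 1 library. The values that turn on that library are given below with and without it, the plot of differences shows both for every member, and the part that other cells' RNA plays in them was not tested. In bulk RNA, fewer cells of a type and less RNA per cell cannot be told apart.

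No member passed the test between CCR6+ and CCR6- cells. With limma adjusted over the 14582 genes tested, 0 genes (0.0%) passed at 0.05, and the smallest adjusted p of a member was 0.374. The log2 differences of the members spread closely around 0. Their median was -0.03 with quartiles of -0.18 and 0.24, whereas the median of all genes was 0.10 with quartiles of -0.20 and 1.20. Within 0.5 log2 units of 0 lay 33 members (76.7%), against 60.3% of all genes, and the 95% interval lay within 1 log2 unit of 0 for 26 members (60.5%), against 44.6%. These shares go with level: of the 36 members whose mean over all libraries was at least 500, 86.1% lay within 0.5 units, and so did 86.7% of all genes that high, a level chosen after the values were seen. The median without CCR6+ replicate 2 was 0.04 for the members and 0.04 for all genes. Leaving it out turned the sign of 9 members, whose log2 differences were then 0.15 (Grb2), 0.09 (Rasgrp1), -0.21 (Nf1), 0.05 (Map2k1), 0.08 (Map2k2), -0.06 (Mapk3), -0.06 (Mapk8), 0.34 (Dusp4) and -0.33 (Spred1). Under 21 alternative settings, or 20 for Mapk13 and Spry2, which a mean of at least 100 left out, the sign held throughout for 21 members. It was positive for 8 of them (Gab1, Gab2, Sos2, Map2k6, Mapk13, Dusp6, Spry1 and Spry2) and negative for 13 (Shc1, Sos1, Rasa1, Rasa2, Rasal3, Araf, Map3k1, Map2k7, Mapk9, Mapk11, Ptpn6, Dusp2 and Dusp10). These settings refit the same 7 libraries, so a sign that held is not independent support. Without CCR6+ replicate 2, Spry1 was at 0.04 and Rasa1 at -0.03. No direction is read from members whose groups overlapped.

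Groups did not overlap for 1 member that was higher in CCR6+ cells, Mapk13, beside a background of 7.96% of all genes, and for 2 that were lower, Rasa2 and Ptpn6, beside 5.53%. At an unadjusted limma p under 0.05 lay 2 members in the higher direction, Mapk13 and Gab1, beside 8.22% of all genes, and 1 in the lower, Rasa2, beside 2.35%. As shares of the 43 genes, these counts are not above the background. DESeq2 on the whole reads behind the values called Gab1 and Mapk13 higher and no member lower, beside 4.03% and 1.01% of the 13487 genes it gave an adjusted p. It called no member without CCR6+ replicate 2, where Gab1 missed the threshold and Mapk13 was given no adjusted p, beside 0.845% of 12301 genes called higher and 0.65% called lower. EdgeR called none in either case. All 43 members passed the filter on low values, 41 of them on the CCR6- libraries alone. Mapk13 and Spry2 passed only with the help of the CCR6+ libraries, so a difference in that direction was partly a condition of their being tested.

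**Figure D1:**
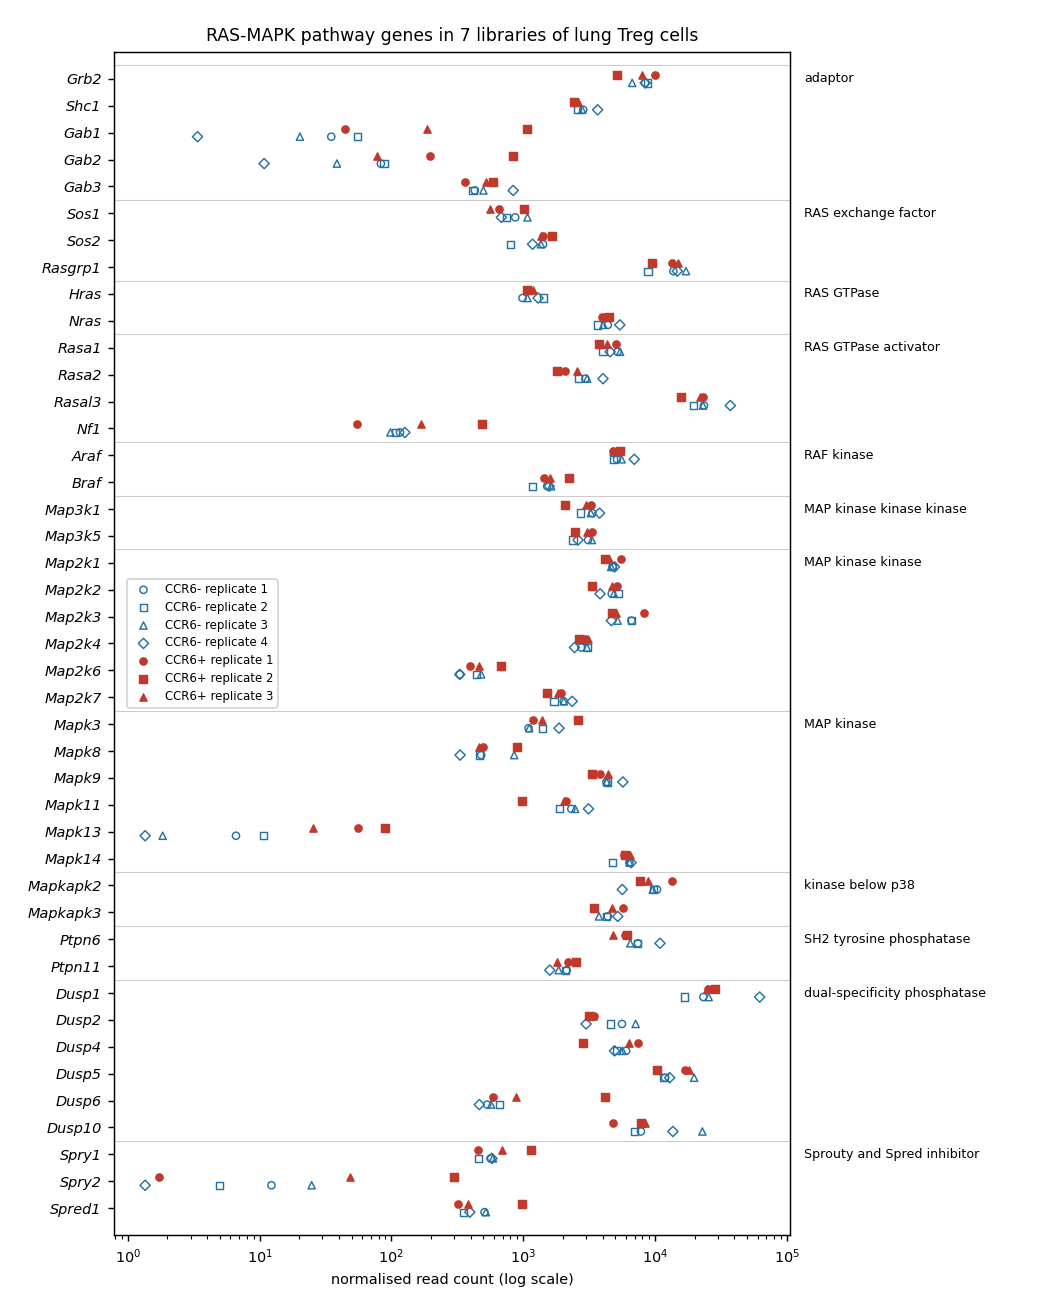
Level of each member (normalised count, log axis) in the 3 CCR6+ and 4 CCR6- libraries, with the members ordered by role; every point is a library. Points of both groups overlap for all members except Mapk13, where the CCR6+ libraries lie higher, and Rasa2 and Ptpn6, where they lie lower.

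Among the adaptors, Grb2 and Shc1 were abundant in both groups and did not pass the test, and the docking proteins Gab1 and Gab2 were low in CCR6- cells and varied most. In the order of replicates, kept throughout, Grb2 had 9996, 5177 and 7986 normalised counts in the CCR6+ libraries and 8404, 8739, 6715 and 8428 in the CCR6- libraries. CCR6+ cells held both the highest and the lowest library, and the log2 difference was -0.11 ± 0.26 (SE, n = 3 and 4; 95% interval -0.74 to 0.53). It was 0.15 without CCR6+ replicate 2, so Grb2 has no stable direction. Shc1, which links receptors to GRB2, stood at 2485 ± 92.1 (SD, n = 3) and 2975 ± 480 (SD, n = 4) normalised counts, with a log2 difference of -0.25 and an adjusted p of 0.569.

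Gab1, a scaffold that binds GRB2 and the phosphatase SHP2, had 44.7, 1065 and 186.8 normalised counts in CCR6+ cells and 35.0, 55.5, 20.2 and 3.38 in CCR6- cells. The groups overlapped, since CCR6+ replicate 1 lay below CCR6- replicate 2. These levels rest on 52, 468 and 184 reads and on 37, 67, 22 and 5 reads. The log2 difference was 3.33 ± 1.30 (SE, n = 3 and 4; 95% interval 0.18 to 6.47), with an unadjusted p of 0.0414 and an adjusted p of 0.467. Without CCR6+ replicate 2 it was 2.15 at an unadjusted p of 0.125. DESeq2 gave an adjusted p of 0.0177 with that library and of 0.614 without it. Gab2, a related scaffold, had 195.0, 841.6 and 78.2 normalised counts against 83.2, 87.8, 38.6 and 10.8. Its highest value was in the same library, its groups overlapped, and its log2 difference was 2.44 ± 1.04 (SE), or 1.53 without that library. Gab3 had a log2 difference of -0.13 ± 0.32 (SE), with a sign that other settings changed. Per kilobase of exon, Gab3 made up 84.4, 81.0, 92.6 and 98.9% of the Gab family in the CCR6- libraries and 69.6, 30.4 and 73.0% in the CCR6+ libraries. The share was thus below every CCR6- library in all 3 CCR6+ libraries, and was lowest in CCR6+ replicate 2. The part of that library's endothelial, epithelial and macrophage markers in the Gab1 and Gab2 values was not tested.

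None of the exchange factors or RAS genes passed the test. Rasgrp1, the T cell exchange factor, had the highest level of its role, 13354, 9526 and 14979 normalised counts in CCR6+ cells and 13793, 8840, 17193 and 14765 in CCR6- cells. The ranges overlapped almost wholly, and the log2 difference was -0.10 ± 0.29 (SE; 95% interval -0.81 to 0.61). Sos1 and Sos2, which respond to GRB2, had log2 differences of -0.21 and 0.34, with adjusted p-values of 0.723 and 0.570. Per kilobase, Sos2 made up 71.6% ± 4.27 (SD, n = 3) of the pair in CCR6+ and 63.4% ± 5.16 (SD, n = 4) in CCR6- cells. Sos1, without CCR6+ replicate 2, was lower in both remaining CCR6+ libraries than in any CCR6- library, with a log2 difference of -0.46. Nras had 3992, 4495 and 4086 normalised counts against 4387, 3653, 4056 and 5412, with a log2 difference of -0.05 ± 0.19 (SE; 95% interval -0.50 to 0.40). All 3 CCR6+ values lay inside the CCR6- range. Hras was lower than Nras per kilobase, at 297 against 786 in CCR6+ and 321 against 821 in CCR6- cells, and its log2 difference was -0.10 ± 0.19 (SE).

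Of the GTPase activators, which return RAS to its inactive form, Rasa2 was the member whose groups separated downwards. It had 2081, 1817 and 2543 normalised counts in CCR6+ cells and 2964, 2614, 3058 and 4032 in CCR6- cells. Every CCR6+ library lay below every CCR6- library, though 2543 and 2614 nearly met. The means were 2147 ± 367 (SD, n = 3) and 3167 ± 608 (SD, n = 4), and the log2 difference was -0.56 ± 0.22 (SE; 95% interval -1.08 to -0.03). The unadjusted p was 0.0417 and the adjusted p 0.467. Without CCR6+ replicate 2, whose removal cannot make separate groups overlap, the log2 difference was -0.44. The groups overlapped with libraries scaled to equal totals or by quantiles. Rasa2 lies at chr9:96539300-96631617 on the minus strand (mm10) and codes for protein. Rasal3, an activator found mainly in blood cells, had the highest level of this role, with 23007, 15732 and 21779 normalised counts against 23541, 19641, 23140 and 37293. The groups overlapped, CCR6- replicate 4 was the highest library, and the log2 difference was -0.34 ± 0.28 (SE). Rasa1 had a log2 difference of -0.14 ± 0.19 (SE). Nf1, which encodes neurofibromin, was low at 112 ± 12.1 (SD, n = 4) in CCR6- cells and had 55.0, 489.1 and 167.5 in CCR6+ cells. Its log2 difference of 0.57 became -0.21 without CCR6+ replicate 2.

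The kinases at the top and middle of the cascades showed no difference beyond the spread. Araf, the RAF kinase of higher level, had 4797, 5432 and 4802 normalised counts in CCR6+ cells and 5155, 4856, 5582 and 6962 in CCR6- cells, with a log2 difference of -0.16 ± 0.18 (SE). CCR6- replicate 4 was highest and the groups overlapped. Braf, the RAF kinase with the strongest activity toward MEK, had 0.24 ± 0.23 (SE), or 0.05 without CCR6+ replicate 2. Per kilobase, Araf made up 85.9% ± 2.00 (SD, n = 3) and 88.9% ± 1.31 (SD, n = 4) of the pair. Map3k1, which feeds the JNK cascade, had 3255, 2070 and 2978 against 3351, 2706, 3265 and 3798, and a log2 difference of -0.26 ± 0.23 (SE). Map3k5, known as ASK1 and activated by oxidative stress, had one of 0.05 ± 0.20 (SE).

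The 6 MAP kinase kinases had log2 differences between -0.21 (Map2k7) and 0.35 (Map2k6), and none had an adjusted p below 0.578. Map2k3, which activates p38, had the highest level of them, 8292, 4747 and 5068 normalised counts against 6626, 6675, 5206 and 4671. CCR6+ replicate 1 was the highest library and the other CCR6+ values lay within the CCR6- range. The log2 difference was 0.03 ± 0.27 (SE; 95% interval -0.62 to 0.68). Map2k6, the other activator of p38, was at 512 ± 153 (SD, n = 3) and 396 ± 77.0 (SD, n = 4). Map2k1 and Map2k2, which encode MEK1 and MEK2, had log2 differences of -0.03 ± 0.16 and -0.11 ± 0.22 (SE). The 95% interval for Map2k1 ran from -0.41 to 0.35. The activators of JNK, Map2k4 and Map2k7, stood at 0.04 ± 0.16 and -0.21 ± 0.18 (SE).

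At the level of the MAP kinases, the main p38 gene did not differ detectably, and the least expressed p38 gene, Mapk13, was higher in all CCR6+ libraries than in any CCR6- library. Mapk14 had 5864, 5960 and 6480 normalised counts in CCR6+ cells and 6391, 4749, 6423 and 6587 in CCR6- cells. The CCR6+ values fell inside the CCR6- range. The means were 6101 ± 331 (SD, n = 3) and 6038 ± 863 (SD, n = 4), and the log2 difference was 0.03 ± 0.18 (SE; 95% interval -0.41 to 0.46). Mapk14 spans chr17:28691329-28748406 and Mapk13 chr17:28769297-28780233, both on the plus strand (mm10).

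Mapk13 had 55.8, 88.7 and 25.4 normalised counts in the CCR6+ libraries and 6.62, 10.8, 1.84 and 1.35 in the CCR6- libraries. The lowest CCR6+ library was above the highest CCR6- library. The reads behind these values were 65, 39 and 25 and then 7, 13, 2 and 2. The means were 56.6 ± 31.7 (SD, n = 3) and 5.15 ± 4.44 (SD, n = 4), and the log2 difference was 3.37 ± 0.71 (SE; 95% interval 1.64 to 5.10). The unadjusted p was 0.00287 and the adjusted p 0.374, for a gene that reached the filter only through the CCR6+ libraries, where it is high. Without CCR6+ replicate 2 the log2 difference was 2.97, and leaving that library out could not make the groups overlap. DESeq2 gave an adjusted p of 0.0438 and, without CCR6+ replicate 2, no adjusted p for this gene. The adjusted p of edgeR was 0.314. Under quantile normalization the groups overlapped and the log2 difference was 0.85. Macrophage and monocyte markers summed to 52273, 120526 and 9693 in the CCR6+ libraries and 30412, 34335, 5697 and 1335 in the CCR6- libraries. Epithelial markers had 11435, 75903 and 3347, and 3757, 8973, 1738 and 2631, in the same order. Endothelial and stromal markers had 6176, 48208 and 8674, and 7427, 7556, 8299 and 5517. B cell markers had 5271, 4866 and 1197, and 1999, 3441, 470.8 and 611.2. Granulocyte and mast cell markers had 219.1, 2122 and 359.3, and 288.5, 164.1, 63.45 and 9.475. The part of any of these cell types in the Mapk13 values was not tested.

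**Figure D2:**
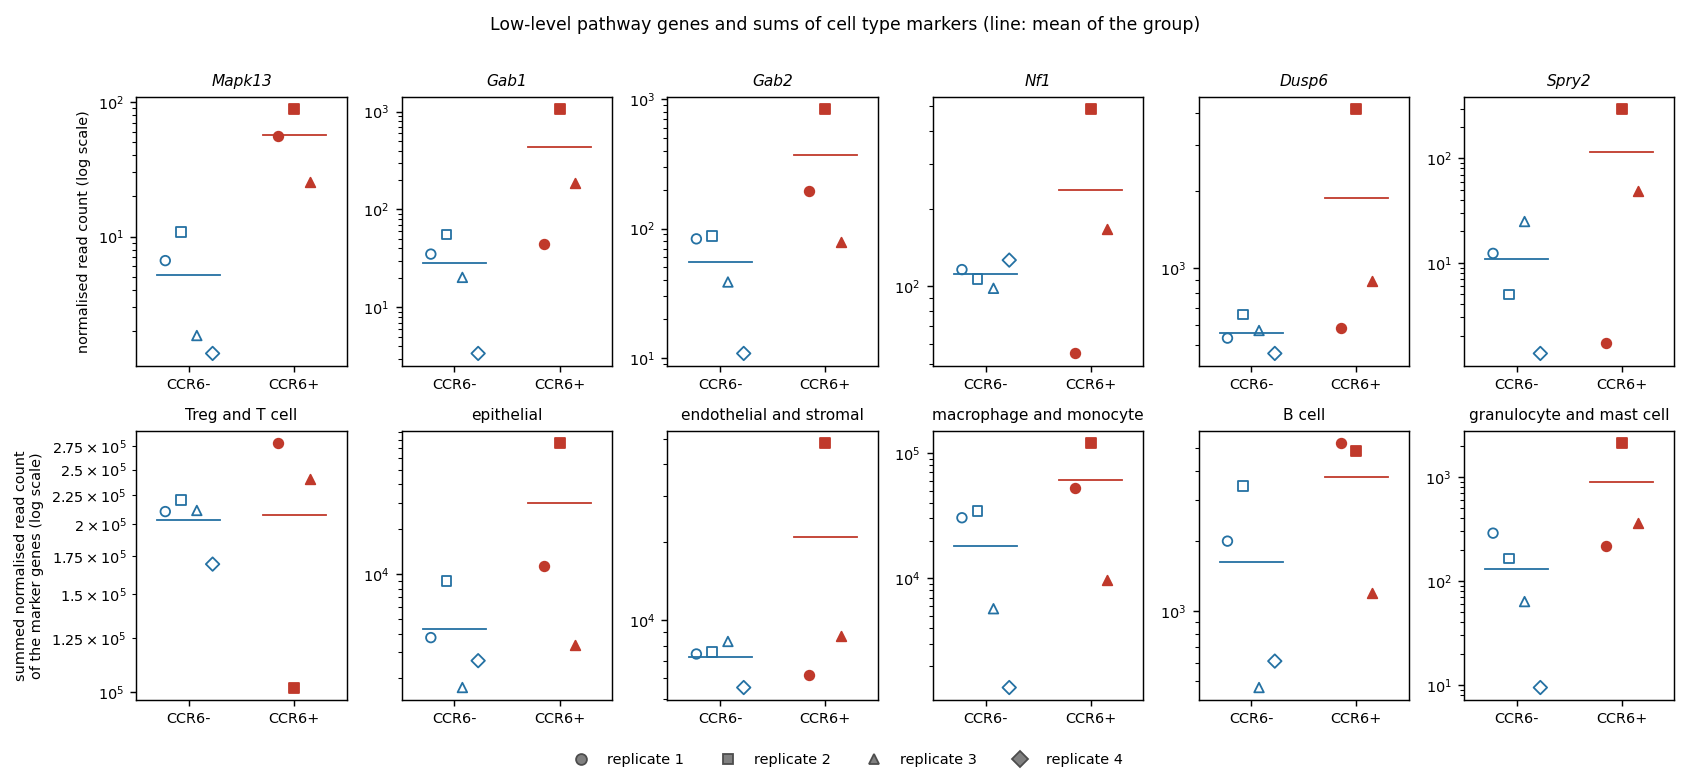
Normalised counts of 6 low or variable members (upper row) and summed normalised counts of 6 lists of cell type markers (lower row), on log axes; each point is a library and each line the mean of its group. CCR6+ replicate 2 is the highest library for all 6 genes and for every marker sum except those of Treg and T cells, where it is lowest with 102039, and of B cells.

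Mapk11, which encodes p38 beta, had 2128, 982.7 and 2051 normalised counts in CCR6+ cells and 2318, 1898, 2478 and 3128 in CCR6- cells. The groups overlapped through CCR6- replicate 2. The log2 difference was -0.57 ± 0.34 (SE; 95% interval -1.39 to 0.25), and -0.21 without CCR6+ replicate 2. Of the 3 p38 members together, per kilobase of exon, Mapk14 made up 64.0, 78.7 and 67.3% in the CCR6+ libraries and 64.5, 62.2, 63.1 and 58.1% in the CCR6- libraries. The Mapk11 share was 35.2, 19.7 and 32.3% against 35.4, 37.6, 36.9 and 41.8%. Every CCR6+ share was below every CCR6- share, by as little as the step from 35.2 to 35.4%. Mapk13 contributed at most 1.63%, in CCR6+ replicate 2, and at least 0.0166%, in CCR6- replicate 4, so its difference hardly altered the sum of the 3. Mapk12, the p38 gamma gene, is not among the members or in these shares. It had 77.3, 318.5 and 66.0 normalised counts against 157.0, 207.2, 127.8 and 188.8, more than Mapk13 in every library. Its log2 difference was -0.50 ± 0.57 (SE; adjusted p 0.678), and -1.22 without CCR6+ replicate 2, when the groups did not overlap (adjusted p 0.453).

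The ERK and JNK genes did not pass the test either. Mapk3, which encodes ERK1, had a log2 difference of 0.28 ± 0.34 (SE), which was -0.06 without CCR6+ replicate 2. Mapk9 (JNK2) was far above Mapk8 (JNK1), at 91.0% ± 4.28 (SD, n = 3) and 93.5% ± 2.98 (SD, n = 4) of the pair per kilobase. Mapk9 had a log2 difference of -0.28 ± 0.19 (SE) and Mapk8 one of 0.24 ± 0.39 (SE). Below p38, the kinase gene Mapkapk2 had 13548, 7675 and 8878 normalised counts against 10363, 9758, 9620 and 5647. CCR6+ replicate 1 was the highest and CCR6- replicate 4 the lowest library, and the log2 difference was 0.18 ± 0.31 (SE). Mapkapk3 had 0.06 ± 0.23 (SE).

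**Figure D3:**
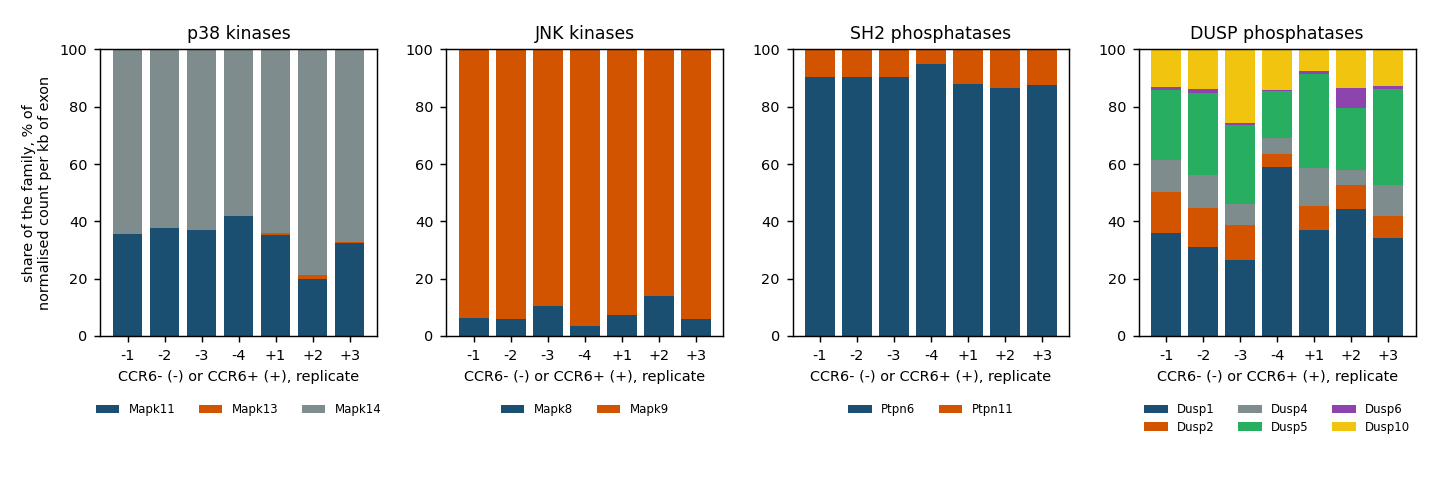
Share of each gene in its family, as % of the normalised count per kilobase of exon summed over the family, for the members among p38 (without Mapk12), JNK, SH2 phosphatases and DUSPs; each stacked bar is a library. Mapk14, Mapk9 and Ptpn6 make up most of their families in all 7 libraries, and Dusp1 takes its largest DUSP share, 58.8%, in CCR6- replicate 4.

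The SH2-domain phosphatase SHP1, encoded by Ptpn6, is known to restrain antigen receptor signalling, whereas SHP2, encoded by Ptpn11, promotes RAS activation. Ptpn6 had 5961, 6098 and 4844 normalised counts in CCR6+ cells and 7421, 7395, 6499 and 10913 in CCR6- cells. Every CCR6+ library was below every CCR6- library. The means were 5635 ± 688 (SD, n = 3) and 8057 ± 1952 (SD, n = 4), and the log2 difference was -0.49 ± 0.23 (SE; 95% interval -1.05 to 0.06). The unadjusted p was 0.0721 and the adjusted p 0.484. Without CCR6+ replicate 2, whose removal cannot make separate groups overlap, the difference was -0.56. The groups overlapped with libraries scaled to equal totals or by quantiles. Ptpn6 lies at chr6:124720707-124738714 on the minus strand (mm10), and 6.96% of its exonic bases overlap other genes. Ptpn11 had 0.18 ± 0.20 (SE). Per kilobase, Ptpn6 made up 87.9, 86.5 and 87.7% of the pair in CCR6+ cells and 90.3, 90.4, 90.3 and 94.8% in CCR6- cells, with no overlap. No background was made for family shares, so their separation, here and for Gab3 and Mapk11, is description only.

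No DUSP gene passed the test, and Dusp1 and Dusp5 were among the most abundant members. Dusp1, an early response gene whose product acts on p38 and JNK, had 25355, 28363 and 24909 normalised counts in CCR6+ cells and 23285, 16864, 25554 and 62286 in CCR6- cells. CCR6- replicate 4 had more than any other library and the CCR6+ values lay between those of CCR6- replicates 2 and 4. The log2 difference was -0.10 ± 0.45 (SE; 95% interval -1.19 to 0.98). Dusp5, a nuclear phosphatase of ERK, had 15128 ± 4193 (SD, n = 3) and 14092 ± 3855 (SD, n = 4). Dusp1 and Dusp5 reached 7916 and 6117 normalised counts per kilobase of exon in CCR6+ and 9664 and 5698 in CCR6- cells. The Dusp5 level is uncertain to the extent that 22.1% of its exonic bases overlap other genes. Dusp2, a nuclear phosphatase induced in activated T cells, had a log2 difference of -0.53 ± 0.31 (SE), and Dusp10, which acts on JNK and p38, one of -0.74 ± 0.48 (SE). Dusp10 had 22888 in CCR6- replicate 3 and 4814 to 13680 elsewhere. Dusp4 had a log2 difference of -0.08 ± 0.35 (SE), which was 0.34 without CCR6+ replicate 2, and then both CCR6+ libraries were above every CCR6- library.

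Dusp6 and the Sprouty and Spred genes are feedback inhibitors whose mRNA is known to follow ERK activity in many cells. Dusp6 had 585.9, 4160 and 887.2 normalised counts in CCR6+ cells and 533.4, 660.4, 571.1 and 465.0 in CCR6- cells. CCR6+ replicate 2 was far above the rest, and CCR6+ replicate 1 lay inside the CCR6- range. The log2 difference of 1.22 ± 0.66 (SE; adjusted p 0.510) was 0.38 without that library. Spry1, the highest of the Sprouty and Spred members, had 457.1, 1156 and 692.3 against 565.6, 459.9, 589.4 and 578.7. Its difference of 0.39 ± 0.33 (SE) was 0.04 without CCR6+ replicate 2. Spry2 had 1.72, 298.0 and 48.7 against 12.3, 4.97, 24.8 and 1.35, from 2, 131 and 48 reads and from 13, 6, 27 and 2 reads. CCR6+ replicate 2 was the highest of the 7 libraries, whereas CCR6+ replicate 1 was above CCR6- replicate 4 alone, and the difference of 2.04 ± 1.67 (SE) was 0.48 without that library. Spred1 had 0.16 ± 0.42 (SE), and -0.33 without it. None of these genes separated the groups in either case.

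**Figure D4:**
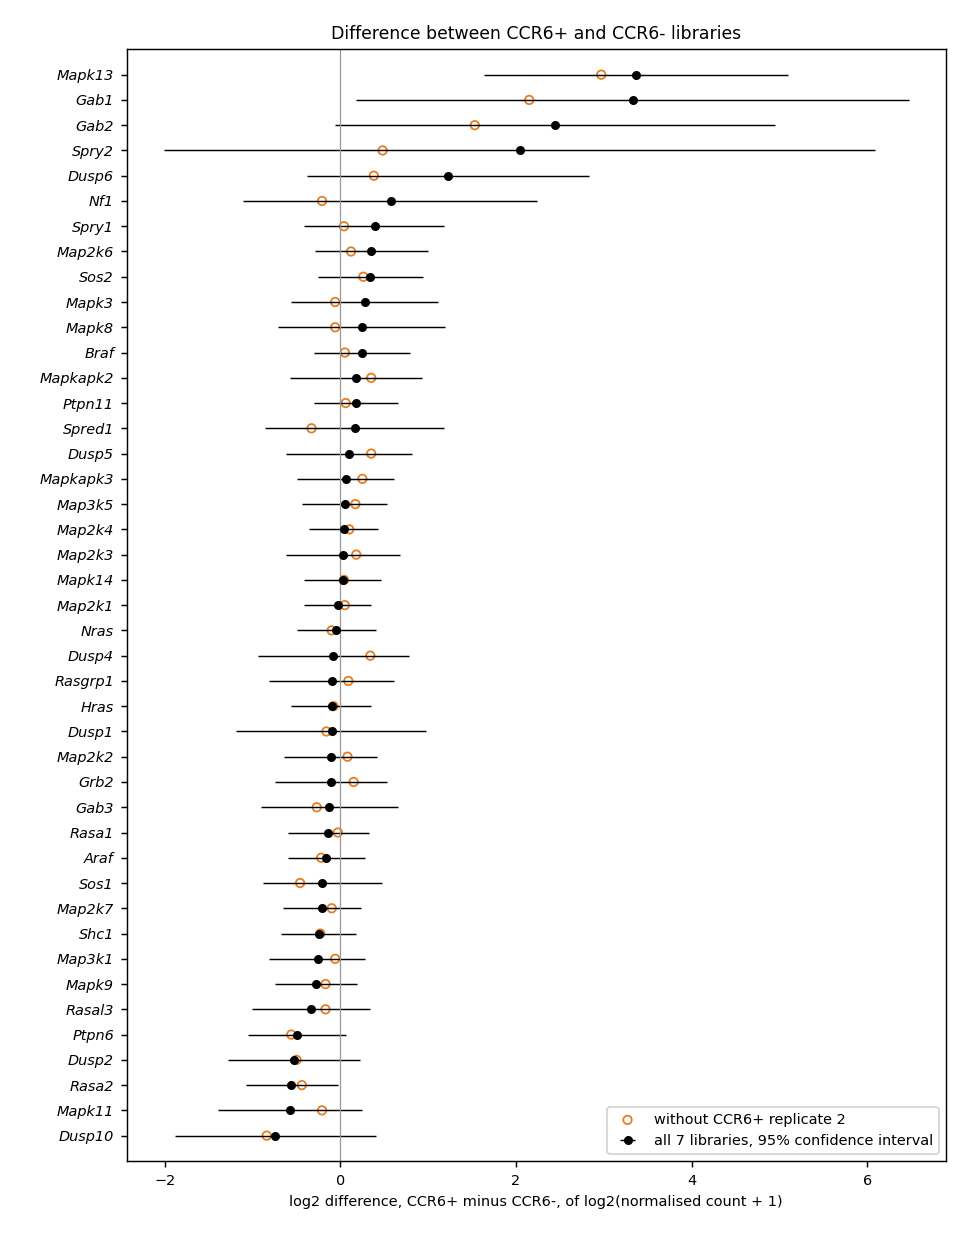
Log2 difference (CCR6+ minus CCR6-, on log2 of the normalised count + 1) of each member with its 95% confidence interval over all 7 libraries (black) and the difference without CCR6+ replicate 2 (orange rings), ordered by size. Most black points lie near 0, the intervals of Mapk13, Gab1 and Rasa2 leave out 0, and the rings of Spry2, Dusp6 and Gab1 lie nearer to 0 than their black points.

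The pattern of the low members and of CCR6+ replicate 2 went together. The 7 members with a mean under 500 (Gab1, Gab2, Nf1, Map2k6, Mapk13, Spry2 and Spred1) all had a positive log2 difference, with a median of 2.04. All 7 had their highest value in CCR6+ replicate 2. Of all 6933 genes that low, 75.2% were highest there, and their median was 1.18. Without that library the medians were 0.48 for the members and 0.37 for the genes of that level. Of the 36 higher members, 14 had a positive and 22 a negative difference, with a median of -0.10, beside -0.11 for the 7649 genes of that level. Without CCR6+ replicate 2, groups did not overlap for 2 higher members, Mapk13 and Dusp4, beside 10.5% of all genes, and for 4 lower ones, Sos1, Rasa2, Araf and Ptpn6, beside 8.62%.

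A further list of 70 genes of the same pathway, of which 68 were tested, also had no gene past limma's adjusted threshold. Of these, 37 had a positive and 31 a negative difference, with a median of 0.03, and the smallest adjusted p was 0.391. Groups did not overlap for 6 higher and 5 lower genes, beside 7.96% and 5.53% of all genes. DESeq2 called 4 genes higher and 3 lower of the 67 to which it gave an adjusted p, beside 4.03% and 1.01% of all genes, and none without CCR6+ replicate 2. Its adjusted p was 0.00181 for Rasgrp3, 0.00723 for Spry4, 0.0106 for Mras, 0.0159 for Rasgrp4, 0.00971 for Rasa3 and 0.0436 for Rasgrp2. EdgeR gave 0.314 for each of these 6. Spry4 is among 3 genes of the list that passed the filter on low values only with the CCR6+ libraries. Spry4, a Sprouty inhibitor, had 67.9, 559.6 and 147.2 normalised counts in CCR6+ cells and 5.68, 15.7, 15.6 and 0 in CCR6- cells, a log2 difference of 4.77 ± 1.21 (SE; adjusted p 0.419), or 3.94 without CCR6+ replicate 2. All 3 CCR6+ libraries were above the CCR6- libraries. Mras, a RAS relative, had 30.9, 220.6 and 70.0 against 10.4, 9.12, 10.1 and 13.5, a log2 difference of 2.77 ± 0.63 (SE; adjusted p 0.391), or 2.03 without that library. The exchange factor Rasgrp3, known from B cells, had 293.0, 2065 and 184.7 against 84.2, 98.6, 51.5 and 38.6, a log2 difference of 2.90 ± 0.87 (SE), or 1.85 without that library. All 3 genes peaked in CCR6+ replicate 2. Their groups were apart with all libraries, so leaving that library out could not make them overlap.

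In the lower direction, the GTPase activator Rasa3 had 14645, 13171 and 14489 normalised counts against 23110, 17017, 20591 and 19998. Its log2 difference was -0.51 ± 0.17 (SE; adjusted p 0.449), and -0.46 without CCR6+ replicate 2. Rasgrp2, the exchange factor of RAP1, had 1918, 2714 and 2890 against 3961, 3571, 3906 and 6549. Its log2 difference was -0.82 ± 0.28 (SE; adjusted p 0.449), and -0.89 without that library. Both were lower in every CCR6+ than in every CCR6- library, as was Rasa2 among the members.

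The last list held 24 transcription factor and early response genes, called response genes here, such as Egr1, Fos and Jun. Of these 24, 14 had a positive and 10 a negative difference, with a median of 0.14. None passed adjustment with limma, and groups did not overlap for 2, both higher in CCR6+ cells, beside 7.96% of all genes. DESeq2 called none of the 21 it gave an adjusted p, and Fosl2 alone without CCR6+ replicate 2 (adjusted p 0.0324, and 0.0769 with it). Fosl2, an AP-1 subunit, had 2794, 1358 and 1506 normalised counts against 1279, 947.9, 894.7 and 914.4, a log2 difference of 0.84 ± 0.30 (SE; adjusted p 0.455). It was highest in CCR6+ replicate 1, and without CCR6+ replicate 2 the difference was 1.04. Ccnd1, which encodes cyclin D1, had 125.4, 1226 and 106.6 against 67.2, 48.1, 18.4 and 32.5, a log2 difference of 2.74 ± 0.95 (SE; adjusted p 0.449), or 1.60 without that library. The immediate early gene Egr1 had 10716 in CCR6+ replicate 2 and 3670 to 5217 elsewhere, and it was named after its values were seen.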

How the data were processed

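RNA was measured in 3 CCR6+ and 4 CCR6- libraries, grouped by the labels. Per the labels' protocols, a SMART-Seq v4 kit gave the cDNA and a KAPA Hyper Prep kit the libraries. For each symbol the authors deposited a normalised signal. Each library has a smallest step, and 100.0% of its values are whole multiples of that step to within 0.001 reads, that is, counts divided by a size factor. The submitters' processing notes list STAR 2.5.1b, HTSeq 0.6.1p1, DESeq2 1.6.3 and mm10. The annotation, and whether counting used strand, is not given in the sources used here. Reads of overlapping or antisense genes may not have been separable.

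Of 19736 symbols, 14582 genes that reached 10 in 3 or more libraries were tested with limma 3.58.1 (R 4.3.3) on log2(value + 1), two-sided, CCR6+ against CCR6- with no covariate, with Benjamini-Hochberg adjustment over all of them at 0.05. On simulated data the script made 89 calls, 8 of them false, and missed many of the planted changes. A lack of calls thus does not show a lack of difference. As alternatives, edgeR 4.0.16 and DESeq2 1.42.0 were run on the recovered whole reads, which number 11607780 to 47261246 per library. Other pseudocounts, filters, scalings, weights, a replicate block and each library left out in turn were tried as well. EdgeR and DESeq2 without CCR6+ replicate 2, and the split of members at a mean of 500, were chosen after the data were seen. Exon lengths and positions are from GENCODE M21 (mm10), and promoter sequences from RefSeq (GRCm38.p6).

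The members and lists were chosen with earlier results of these data known. Values in every library are given for members whose groups did not overlap or had an unadjusted p under 0.05, and for the member of highest mean level in each role. From the other lists, up to 3 genes of smallest p per direction with groups that did not overlap are named. Values of Gab2, Nf1, Mapk11, Mapk12, Dusp6, Spry2 and Rasgrp4 were added after they were seen. A gene that falls under this rule is not reported here. No 2 libraries of a group agreed within sampling noise.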

Additional observations from a re-analysis of the deposited data

Results flagged for a closer look

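In the 4 CCR6- libraries, 7 of 50 sets of values had a library set apart from its 3 companions. A library was called set apart when the gap to its nearest companion took up most of the range of the 4 values. By chance, 5% of sets would pass the cut used if normalised counts were normally distributed, which was not tested. The sets share the same 4 libraries, and some are genes named for groups that did not overlap. The count is therefore no test of an excess. Grb2 had 6715 normalised counts in CCR6- replicate 3 and 8404 to 8739 in the other 3. Mapk14 had 4749 in CCR6- replicate 2 and 6391 to 6587 in the others. Mapk9 had 5708 in CCR6- replicate 4 and 4279 to 4361 in the others. Mapkapk2 had 5647 in CCR6- replicate 4 and 9620 to 10363 in the others. Rasgrp2 had 6549 in that library and 3571 to 3961 in the others. Dusp5 had 19820 in CCR6- replicate 3 and 11715 to 12920 in the others. Fosl2 had 1279 in CCR6- replicate 1 and 894.7 to 947.9 in the others.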

How the results depend on the processing

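No setting of limma or edgeR called a member, and DESeq2 called 2, Gab1 and Mapk13, but 0 without CCR6+ replicate 2, where Mapk13 had no adjusted p. Over all genes, 0 were called. The count was 1 with a pseudocount of 0.5, 2 with a pseudocount of 8, 2 with a mean of at least 100, 1 with TMM scaling, 4 with quantile normalization, 10 with limma-trend, 36 with arrayWeights, 2 with edgeR, 679 with DESeq2, and, without CCR6+ replicate 2, 2 with edgeR and 184 with DESeq2. With a library left out it ran from 0 to 1. Members at an unadjusted p under 0.05 numbered 3, against 1 with quantile normalization, 5 with limma-trend, 5 with arrayWeights, 7 with edgeR and 9 with DESeq2, and 1 to 6 with a library left out. Members whose groups did not overlap numbered 3, against 1 with equal library totals (Mapk13), 6 with TMM (Shc1, Rasa2, Araf, Mapk9 and Ptpn6 lower, and 1 higher), 1 with quantile normalization (Sos2), and 3 to 10 with a library left out. In the last, Mapk13, Rasa2 and Ptpn6 stayed apart each time. This is no test, since groups that lie apart cannot come to overlap when a library is left out. The count there could therefore not fall below 3. Why the counts moved was not tested. The median of the members ran from -0.11 to 0.06, and that of all genes moved from 0.10 to -0.08 with quantile normalization and to 0.429 with no filter, over more genes. Adjusted DESeq2 p for Mapk13 was 0.0438. Of 901 member values under the alternatives, 88 had another sign and 6 moved by at least 1 SD. The labels do not say that same-numbered libraries belong together, and the numbers were not taken as pairs. The deviations of same-numbered libraries from their group means correlated at -0.128, -0.112 and 0.342. Libraries of unlike number were not compared in this way, so these values cannot decide whether the libraries were paired. With the replicate block, 0 genes were called, 2 members had an unadjusted p under 0.05, and the members' median was -0.02. Depth limits the low members, since 1 read is worth 2.27 units in CCR6+ replicate 2 and 0.677 in CCR6- replicate 4.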

Other observations

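CCR6- replicate 4, the deepest library, had the highest level of 13 of the 36 members with a mean of at least 500 (36.1%), much as for all genes of that level (35.7%), and of 0 of the 7 lower members. Of the 24 response genes, 9 were highest there (37.5%), beside 21.6% of all genes tested. Among the 24, 8 were lowest there, beside 3526 of all 14582 genes tested. Among the former, Jun had 41878 normalised counts in that library and 10852 to 18955 in the other 6, and Junb had 153559 and 52366 to 90888 elsewhere. Among the latter, Mcl1, an anti-apoptotic gene, had 11789 and 22122 to 32634 elsewhere, and Ier3 had 28.4 and 104.8 to 3696 elsewhere. Fos was high in that library, at 23556, and in CCR6+ replicate 2, at 25067, and had 8016 to 13818 in the other 5. These genes were named after their values were seen.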
